A study of Mus musculus with 2 samples.

Results

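The genes described here encode the proteins of the mitochondrial ribosome, and they were read in mouse bone marrow progenitors across every transcript listed for them. They were taken by annotation, as the protein-coding Ensembl genes whose symbol is Mrpl or Mrps followed by a number. The rule uses no measured value, but it was set with earlier results of these data known. In all, 77 of 43346 Ensembl genes in the tables met that rule, out of 21474 protein-coding genes. By symbol, 48 belong to the large and 29 to the small subunit, and they lie on 17 chromosomes. Mrpl33, which the annotation also names, was not analysed here.

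The mitochondrial ribosome translates the few messages of the mitochondrial genome, all of which encode parts of the oxidative phosphorylation complexes. Its ribosomal RNAs come from mitochondrial DNA, while its proteins are encoded in the nucleus, made in the cytosol and imported. Part of these proteins have a counterpart in bacterial ribosomes; the others were gained in the mitochondrial lineage and stand in for lost ribosomal RNA or build surfaces found in mitochondria alone.

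The data are 2 total RNA-seq libraries, replicates 1 and 2 of a single group, with no treated or mutant arm. The labels describe megakaryocyte progenitors (CFU-Meg, the cells that give rise to the producers of platelets) from male C57BL/6J mice aged 5 to 6 weeks, with 1 ng of RNA per library. The libraries come from separate biosamples under 1 donor identifier, so the spread between them may be technical and need not be that between animals. They held 82746658 expected counts in replicate 1 and 75652762 in replicate 2. Against the labelled cell type, the 10 megakaryocyte marker genes together had 11.2 and 6.8 TPM in replicates 1 and 2, with 5 of them under 1 TPM in both libraries and Tubb1 at 0 in both. Their medians were 0.975 and 0.46 TPM. The 5 measured granulocyte markers had median levels of 1738 and 2377 TPM in replicates 1 and 2, and the 5 erythroid markers 10.8 and 5.1 TPM. As sums, the granulocyte markers had 14409 and 14031 TPM and the erythroid markers 591 and 299 TPM in replicates 1 and 2. Most of the erythroid sum was Car1, with 512 and 242 TPM. The part of this cell composition in the levels of the mitochondrial ribosomal protein genes was not tested. In bulk RNA, fewer cells of a type and less RNA per cell cannot be told apart.

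The start regions of 5 members are shown because they belong to the highest large-subunit genes (Mrpl30, Mrpl42), to the lowest small-subunit gene (Mrps27) and to a pair of members transcribed away from each other (Mrpl46 and Mrps11). The windows are those of RefSeq on GRCm38.p6 and run from 250 bases before to 50 bases after the start, 5′ to 3′ on the gene's own strand. Capitals mark matches, on either strand, to 3 motifs known from promoters of nuclear genes for mitochondrial proteins: GCGCA then any base then GCGC (NRF1), CCGGAAG (ETS factors) and AAGATGGC (YY1). Mrpl30 lies at chr1:37890227-37890526 on the plus strand, Mrpl42 at chr10:95501900-95502199 on the minus strand, Mrps27 at chr13:99344536-99344835 on the plus strand, Mrpl46 at chr7:78783040-78783339 on the minus strand and Mrps11 at chr7:78782881-78783180 on the plus strand.
Mrpl30: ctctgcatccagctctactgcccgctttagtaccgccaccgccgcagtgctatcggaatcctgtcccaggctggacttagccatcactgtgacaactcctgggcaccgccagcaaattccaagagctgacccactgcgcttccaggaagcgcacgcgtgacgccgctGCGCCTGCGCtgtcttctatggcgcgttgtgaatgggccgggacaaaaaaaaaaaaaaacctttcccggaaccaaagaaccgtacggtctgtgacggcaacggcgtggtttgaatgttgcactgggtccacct
Mrpl42: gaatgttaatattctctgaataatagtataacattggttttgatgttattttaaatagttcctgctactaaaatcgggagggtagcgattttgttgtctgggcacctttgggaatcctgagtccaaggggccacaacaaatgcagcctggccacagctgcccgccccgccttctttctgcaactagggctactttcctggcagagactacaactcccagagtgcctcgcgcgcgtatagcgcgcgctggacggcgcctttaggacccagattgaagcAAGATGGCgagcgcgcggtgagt
Mrps27: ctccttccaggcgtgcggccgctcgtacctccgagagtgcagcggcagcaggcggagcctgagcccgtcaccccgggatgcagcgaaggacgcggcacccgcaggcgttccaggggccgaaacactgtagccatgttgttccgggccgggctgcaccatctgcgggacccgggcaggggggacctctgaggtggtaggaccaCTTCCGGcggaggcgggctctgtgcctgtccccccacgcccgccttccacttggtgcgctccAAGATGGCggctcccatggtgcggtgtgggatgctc
Mrpl46: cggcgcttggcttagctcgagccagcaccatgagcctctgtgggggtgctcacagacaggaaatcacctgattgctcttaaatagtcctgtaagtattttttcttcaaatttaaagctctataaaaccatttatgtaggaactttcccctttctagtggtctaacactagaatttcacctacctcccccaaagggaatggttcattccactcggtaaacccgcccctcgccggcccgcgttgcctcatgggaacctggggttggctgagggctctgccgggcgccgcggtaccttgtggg
Mrps11: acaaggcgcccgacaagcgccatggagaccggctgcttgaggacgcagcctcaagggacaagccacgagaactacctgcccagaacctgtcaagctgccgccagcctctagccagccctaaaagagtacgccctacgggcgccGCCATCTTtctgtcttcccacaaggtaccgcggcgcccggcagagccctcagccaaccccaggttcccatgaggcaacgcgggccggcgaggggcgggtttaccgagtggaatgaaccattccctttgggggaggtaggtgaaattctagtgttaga
The Mrpl30 window holds 1 NRF1 match, Mrpl42 and Mrps11 each hold 1 YY1 match, Mrps27 holds an ETS and a YY1 match, and the Mrpl46 window holds none of the 3. The Mrpl46 and Mrps11 windows share 141 bases, read on opposite strands, and their RefSeq starts are 42 bases apart. Their gene starts in GENCODE M21, used for the head-to-head pairs below, overlap instead (-412 bases between them).

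Across all members with a RefSeq start, 74 windows of 68 of the 77 genes were searched. At least 1 of the 3 motifs was present in 42 of the 74 windows (56.8%), against 14.7% of all 32851 windows and 34.6% of the 5553 windows of protein-coding genes with a mean level of 10 TPM or more. The ETS letters occurred in 33.8% of member windows, against 8.86% of all windows and 21.5% of those of protein-coding genes at 10 TPM or more. YY1 letters were found in 16.2% of member windows, against 2.75% and 5.58% in the same 2 comparison sets. For NRF1 the shares were 17.6% of member windows, against 4.6% and 12.3%. The TATA letters TATAAA stood in 6.76% of member windows, against 13.6% of all windows and 6.66% of those at 10 TPM or more, and the SP1 letters GGGCGG in 52.7%, against 35.7% and 64.5%. Matches are a description of letters in these windows and say nothing of binding. No member window held overlapping matches of different motifs among NRF1, ETS and YY1.

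All 77 members were present at 1 TPM or more in both libraries, against 46.2% of protein-coding genes. TPM is a level per length of transcript, scaled to a fixed total in each library, so levels of different genes can be set side by side. At 10 TPM or more in both libraries stood 72 members (93.5%), against 24.1% of protein-coding genes. The median member stood at 29.6 and 29.2 TPM in replicates 1 and 2, and 10.8% of protein-coding genes lay above the median member. Together the members summed to 2794 and 2700 TPM in replicates 1 and 2, and they took 0.181% and 0.179% of the expected counts. Mean levels ran from 5.00 TPM for Mrpl11 to 118 TPM for Mrpl30, a 23.7-fold range, and 56 of the 77 were within 2-fold of the median. Each member rested on 357.54 to 4725 reads per library, for which counting error alone is 1.45% to 5.29%. The coefficient of variation between the libraries had a median of 8.82% (n = 2 libraries) and was under 10% for 43 members.

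**Figure D1:**
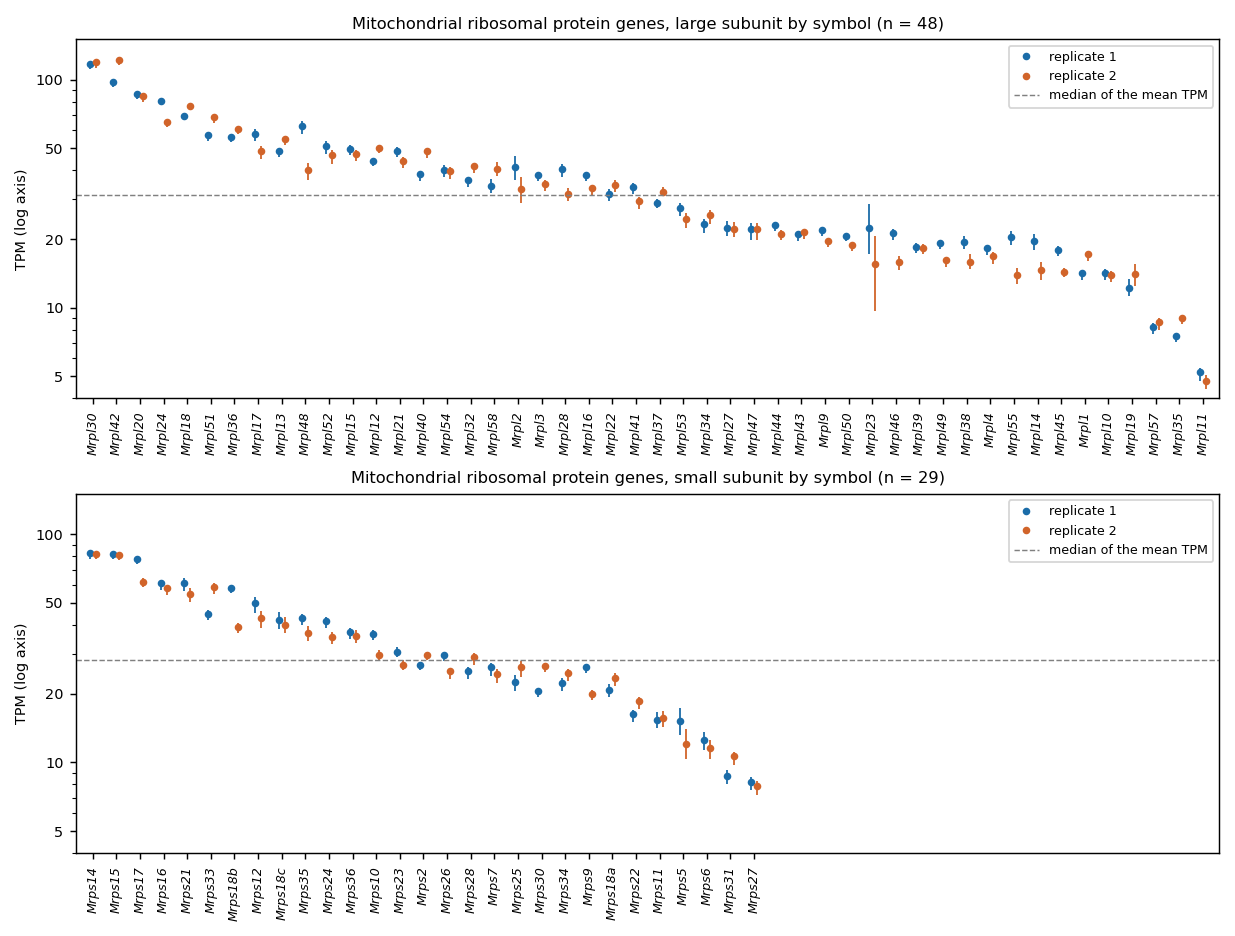
Level of every member in TPM (log axis) in replicate 1 (blue) and replicate 2 (orange) for the large subunit (n = 48, top) and the small subunit (n = 29, bottom), ordered by mean level. Bars are the authors' credibility intervals of the posterior mean, and dashed lines mark the median of the mean levels, 31.0 TPM for the large and 28.1 TPM for the small subunit.

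Large-subunit genes were not set apart from small-subunit genes. Their median was 30.2 TPM against 29.6 TPM for the small subunit in replicate 1, and 30.4 TPM against 29.0 TPM in replicate 2. The log2 ratio of the medians, large over small, was 0.03 in replicate 1 and 0.07 in replicate 2. From the mean levels it was 0.15 (31.0 against 28.1 TPM), and the sign turns with the way the subunits are defined and averaged. When genes were compared pair by pair, the large-subunit gene was the higher in 48.3% of 1392 pairs. Among the 10 highest members 6 were large-subunit and 4 small-subunit genes, and among the 10 lowest each subunit had 5. Summed levels were 1731 ± 27.2 TPM for the large and 1016 ± 39.1 TPM for the small subunit (SD, n = 2 libraries).

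Symbols do not always give the place of a protein in the ribosome. Mrps30 (mL65) and Mrps18a (mL66) sit in the large subunit, Mrps36 is a component of the 2-oxoglutarate dehydrogenase complex, also called Kgd4, and 5 further subunits carry other symbols. With the genes placed by structure, 51 large-subunit genes had a median of 26.0 TPM and 30 small-subunit genes 34.0 TPM. The log2 ratio was then -0.39 (-0.38 in replicate 1 and -0.29 in replicate 2), and the large-subunit gene was the higher in 43.5% of pairs. Of the 5 subunits under other symbols, Chchd1 (mS37) had 64.1 and 68.3 TPM in replicates 1 and 2. Dap3, the GTP-binding subunit mS29, had 51.9 and 45.3 TPM, and Aurkaip1 (mS38) 45.6 and 44.4 TPM. Ptcd3 (mS39), a pentatricopeptide repeat protein at the entrance for messages, had 34.6 and 34.9 TPM. Gadd45gip1 (mL64) was the lowest of the 5, at 10.9 and 11.5 TPM in replicates 1 and 2.

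Among large-subunit genes the highest level belonged to Mrpl30 (uL30m; ENSMUSG00000026087.7, chr1:37890477-37898535, plus strand, mm10). It had 117.5 TPM in replicate 1 and 119 TPM in replicate 2. Mrpl42 (mL42, a protein without a bacterial counterpart; ENSMUSG00000062981.4, chr10:95480805-95501940, minus strand) had 98.0 and 122 TPM. Mrpl30 was the higher in replicate 1 and Mrpl42 in replicate 2, where their credibility intervals overlap. Mrpl20 (bL20m), whose bacterial counterpart acts early in the assembly of the large subunit, had 86.5 and 84.3 TPM. Mrpl24 (uL24m), whose counterpart starts that assembly in bacteria, had 80.9 and 65.3 TPM in replicates 1 and 2.

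The lowest member of all was Mrpl11 (uL11m; ENSMUSG00000024902.4, chr19:4962147-4966999, plus strand), a protein at the base of the stalk where translation factors dock, with 5.20 TPM in replicate 1 and 4.79 TPM in replicate 2. Mrpl35 (bL35m) had 7.51 and 9.02 TPM, Mrpl57 (mL63) 8.25 and 8.64 TPM, and Mrpl19 (bL19m) 12.3 and 14.1 TPM. Low levels per length did not mean few reads: Mrpl19, with an effective length of 4178 bases, drew 3180 and 3272 reads, close to the 3596 and 3349 reads of Mrpl30, whose effective length was 492 bases. The stalk itself was uneven. Mrpl10 (uL10m), which anchors it, had 14.2 and 13.9 TPM, and Mrpl12 (bL12m), the part that recruits factors, had 44.0 and 50.3 TPM in replicates 1 and 2. The 8 proteins listed at the exit of the peptide tunnel had a median of 22.03 TPM, and the 8 of the central protuberance 22.9 TPM, both under the median of 28.6 TPM over all members. At the tunnel exit, Mrpl45, which ties the ribosome to the inner membrane, had 17.9 and 14.4 TPM, and Mrpl44, with a ribonuclease III-like fold, 23.0 and 21.1 TPM. Mrpl58 (mL62, also known as Ict1), a peptidyl-tRNA hydrolase that can release stalled chains, had 34.3 and 40.7 TPM.

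In the small subunit Mrps14 (uS14m; ENSMUSG00000058267.9, chr1:160195215-160202170, plus strand) and Mrps15 (uS15m) shared the top. Mrps14 had 82.4 and 82.3 TPM in replicates 1 and 2, and Mrps15 had 82.0 and 81.2 TPM, so the order of the 2 cannot be read from these libraries. Mrps17 (uS17m), whose bacterial counterpart, like that of Mrps15, binds the small-subunit ribosomal RNA directly, had 77.9 and 62.0 TPM. Mrps16 (bS16m) had 60.9 and 58.1 TPM. At the low end, Mrps27 (mS27, a pentatricopeptide repeat protein; ENSMUSG00000041632.5, chr13:99344786-99415562, plus strand) had 8.20 and 7.85 TPM. Mrps31 (mS31) had 8.75 and 10.6 TPM, Mrps6 (bS6m) 12.6 and 11.6 TPM, and Mrps5 (uS5m) 15.3 and 12.04 TPM.

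The 3 Mrps18 paralogs descend from 1 bacterial protein and now hold different places in the ribosome. Mrps18b (mS40) had 58.1 TPM in replicate 1 and 39.2 TPM in replicate 2, Mrps18c (bS18m) had 42.3 and 40.2 TPM, and Mrps18a had 20.8 and 23.4 TPM. Mrps18a was the lowest of the 3 in both libraries, while Mrps18b lay above Mrps18c in replicate 1 and next to it in replicate 2, where their intervals overlap. Mrps36 had 37.1 and 35.8 TPM. Mrps30, a relative of the large-subunit protein Mrpl37, had 20.6 and 26.4 TPM, against 28.9 and 32.2 TPM for Mrpl37.

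Members classed as mitochondria-specific had lower median levels than members classed as bacterial homologues. The mitochondria-specific class includes Mrps18a and Mrps18b, although these paralogs descend from a bacterial protein. The 31 mitochondria-specific genes had medians of 23.0 and 25.03 TPM in replicates 1 and 2, against 36.6 and 33.1 TPM for the 45 genes with a bacterial homologue. Over the mean levels the medians were 24.4 TPM against 35.7 TPM, a log2 ratio of -0.55, and the mitochondria-specific gene was the higher in 42.2% of pairs. In the large subunit the medians were 26.0 TPM for 19 mitochondria-specific genes and 35.7 TPM for 29 homologues, yet the mitochondria-specific gene was the higher in 47.2% of pairs, close to an even split. The small subunit had 23.9 TPM for 12 mitochondria-specific genes and 35.9 TPM for 16 homologues, the mitochondria-specific gene being the higher in 32.3% of pairs. Both subunits were split by symbol here, so the 12 include Mrps30 and Mrps18a, which sit in the large subunit. Both classes spread widely, with mitochondria-specific genes from 8.03 to 110 TPM and homologues from 5.00 to 118 TPM. These are levels of different genes in the same libraries, given as a description with no test.

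**Figure D2:**
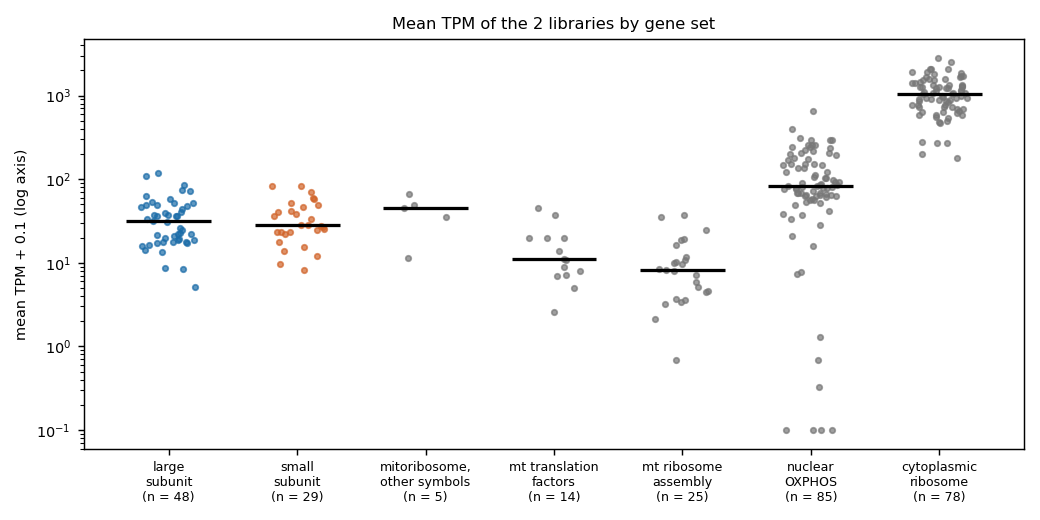
Mean TPM of the 2 libraries plus 0.1 (log axis) for each gene (points) by set, with the median as a bar: large and small subunit, mitoribosome subunits under other symbols, factors of mitochondrial (mt) translation, factors of mitoribosome assembly, nuclear genes of oxidative phosphorylation (OXPHOS) and cytoplasmic ribosomal proteins. Medians of the members (28.6 TPM) lie between those of the assembly factors (8.08 TPM) and of the OXPHOS genes (81.8 TPM).

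The members lay above the factors that use or build the mitochondrial ribosome and below the complexes it helps to make. Assembly factors (25 genes) had a median of 8.08 TPM, and a member was the higher in 89.2% of pairs. Examples are Fastkd2, an RNA-binding protein needed for the large ribosomal RNA, at 36.1 and 38.9 TPM, and Mterf3 at 35.9 and 34.8 TPM in replicates 1 and 2, the highest of that list. Ybey, an endoribonuclease, was the lowest at 0.62 and 0.57 TPM. Translation factors and regulators (14 genes) had a median of 10.9 TPM, and a member was the higher in 82.4% of pairs. The elongation factor Tufm had 35.2 and 38.6 TPM, its exchange factor Tsfm 19.2 and 20.2 TPM, and the initiation factor Mtif3 6.09 and 3.57 TPM. The 85 nuclear genes of oxidative phosphorylation had a median of 81.8 TPM, and a member was the higher in 18.6% of pairs; 4 of the 85 were listed at 0 in both libraries. Cytoplasmic ribosomal proteins (78 genes) had a median of 1054 TPM, a log2 ratio of members over them of -5.21. The lowest of these 78 listed genes, Rpl27 with 188 and 166 TPM, was above Mrpl30, the highest member. The list was made by symbol and leaves out paralogs with a further suffix, such as Rpl3l or Rpl22l1. The mitochondrial ribosomal RNAs stood at 137828 and 142027 TPM (mt-Rnr1, of the small subunit) and at 123185 and 132182 TPM (mt-Rnr2, of the large subunit) in replicates 1 and 2. Ribosomal RNA enters the same fixed total, so the TPM of messages depend on how much of it was read.

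Members with longer transcripts had lower levels per length. Across the 77 members, log2 mean TPM and log2 effective length had a Spearman correlation of -0.57 and a Pearson correlation of -0.60. Over 5416 protein-coding genes with a mean of 10 TPM or more these were -0.33 and -0.38. The 38 members with the shorter transcripts had a median of 39.5 TPM and the 39 longer ones 22.01 TPM. All points share the libraries, and TPM is itself divided by effective length, so these correlations across genes are descriptions. Lengths also depend on the annotation: for 10 members the leading transcript differs by over 5% in a later one, as for Mrps16 (566 bases against 2572), Mrps35 (1074 against 4162) and Mrps30 (1590 against 3319).

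Much of the signal of several members came from transcripts that GENCODE M21 does not class as protein-coding. Over all members, protein-coding transcripts held 76.1% ± 0.3 of the TPM (SD, n = 2 libraries), processed transcripts without an assigned reading frame 8.83% ± 0.47, targets of nonsense-mediated decay 8.25% ± 0.42 and retained-intron transcripts 6.79% ± 0.25. In 27 members the whole level was protein-coding in both libraries, and 19 members had only 1 transcript in the files. In 16 members (10 large, 6 small) the leading transcript was of another class in both libraries, against 9.99% of the protein-coding genes at 10 TPM or more. The same 16 members had under 50% of their TPM in protein-coding transcripts in both libraries, against 10.9% of those genes. For 12 of the 16 the authors' credibility interval of the leading transcript lay clear of that of the best protein-coding one in both libraries. When only protein-coding transcripts were summed, the median member had 21.3 and 20.2 TPM in replicates 1 and 2, and 58 members stood at 10 TPM or more in both.

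**Figure D3:**
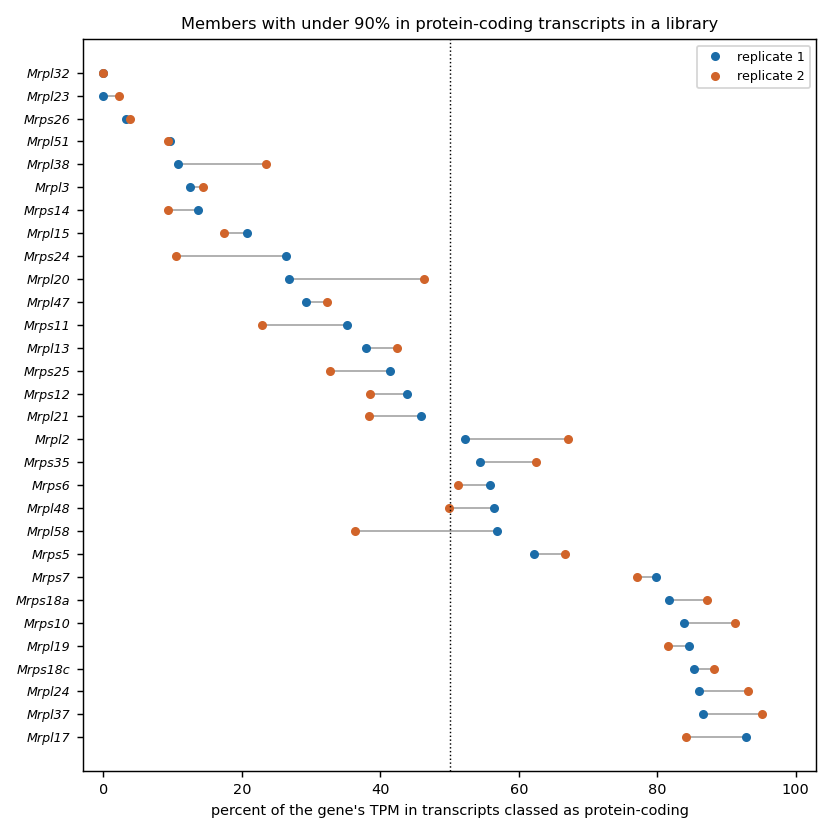
Percent of a member's TPM in transcripts classed as protein-coding by GENCODE M21, in replicate 1 (blue) and replicate 2 (orange), for the 30 members under 90% in either library. The dotted line marks 50%, and 16 members lie left of it in both libraries.

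Mrps14, the highest small-subunit gene, was among these 16. Its leading transcript, classed as a target of nonsense-mediated decay, held 86.4% of its TPM in replicate 1 and 90.7% in replicate 2. That transcript had 71.2 and 74.7 TPM, while the best protein-coding one had 7.44 and 3.18 TPM. For Mrps26 (mS26) a retained-intron transcript held 96.8% and 96.1%, and for Mrps24 (uS3m) another held 73.7% and 89.6%. Mrpl3 (uL3m), near the peptidyl transferase centre, had 82.2% and 80.5% in a decay target. Mrpl20 was led by a processed transcript with 69.4% of its TPM in replicate 1 and 51.5% in replicate 2, and Mrpl51 (mL51) by one with 63.4% and 74.0%. Mrpl32 (bL32m) had only 1 transcript in the files, a decay target in M21. In all 15 members with a protein-coding transcript to compare, the leading transcript was the shorter one, such as 579 bases against 764 for Mrpl20, 855 against 2741 for Mrpl51 and 674 against 787 for Mrps14. The class is that of M21; the class in M4, against which the reads were quantified, was not used here.

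The leading transcript differed between the libraries in 4 members, against 8.01% of protein-coding genes at 10 TPM or more. In Mrpl48 (mL48) a protein-coding transcript of 274 bases led in replicate 1 with 44.8% of the TPM and a decay target of 835 bases in replicate 2 with 48.8%. The gene had 62.5 and 40.1 TPM in replicates 1 and 2, the widest relative spread of all members (coefficient of variation 30.8%). Its reads, 2321 and 1807, gave a log2 ratio of 0.21 after scaling, against 0.64 for the TPM, which also carry the lengths given to the reads. Mrpl2 (uL2m), another protein of the peptidyl transferase centre, was led by a processed transcript of 212 bases in replicate 1 (47.8%) and by a protein-coding one of 1031 bases in replicate 2 (65.7%). Its level was 41.6 and 33.1 TPM, a log2 ratio of 0.33, while its reads had a ratio of -0.05. Mrpl1 (uL1m) and Mrpl55 (bL31m) changed between transcripts that are all protein-coding.

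The libraries were set against each other to see how firmly the levels hold. The comparison tested the reads of replicate 1 against those of replicate 2, gene by gene, with an exact binomial test at the TMM-scaled library ratio and Benjamini-Hochberg adjustment over 14304 genes; it compares these 2 libraries, not conditions, and covers counting error only. A gene was called if its adjusted p was under 0.05 and the libraries differed by 1 or more on the log2 scale. By that rule 0 of the 77 members were called, against 7.66% of the genes tested and 0.607% of those at 10 TPM or more. At an unadjusted p under 0.05 stood 54 members, against 62.6% of all genes tested and 68.6% of those at 10 TPM or more. With the size limit lowered to 0.5, 1 member was called, Mrps18b, against 18.6% of all genes tested and 3.5% of those at 10 TPM or more. By adjusted p alone, 26 members were higher in replicate 1 (against 29.7% of all genes and 26.5% of those at 10 TPM or more). Lower in replicate 1 were 23 members (against 29.4% and 39.2%). The 26 were 16 large and 10 small, and the 23 were 15 large and 8 small. The median log2 ratio of the members was 0.03 and that of all genes tested 0.00, and the median absolute value was 0.18 for members and 0.21 for all genes. Over the members, log2(TPM + 1) in the 2 libraries had a Pearson correlation of 0.97 and a Spearman correlation of 0.96.

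**Figure D4:**
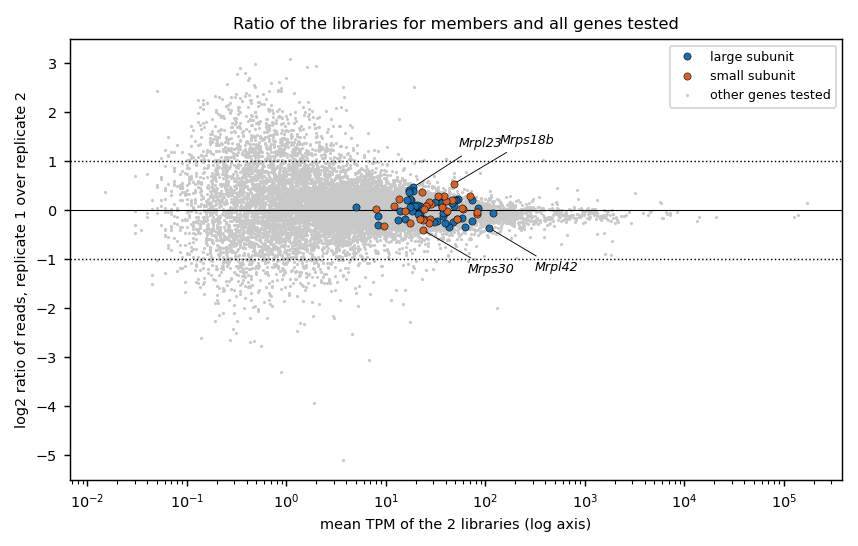
Log2 ratio of reads, replicate 1 over replicate 2, against the mean TPM of the 2 libraries (log axis) for members of the large subunit (blue), of the small subunit (orange) and the other genes tested (grey; 1 gene with a mean of 0 TPM is not drawn). All members lie between -0.40 and 0.54, inside the dotted lines at -1 and 1 that bound the calls.

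Mrps18b (chr17:35910379-35916389, minus strand) had the largest ratio, with 3138 reads in replicate 1 and 1941 in replicate 2. Its log2 ratio was 0.54, or 1.46-fold (adjusted p = 3.94e-38, exact binomial test), and its credibility intervals did not overlap. Mrpl55, with 20.5 TPM in replicate 1 and 13.9 TPM in replicate 2, had a log2 ratio of 0.42, behind Mrps18b and Mrpl23 (adjusted p = 2.36e-07, exact binomial test). On the other side, Mrps30 had 1859 reads in replicate 1 and 2213 in replicate 2, a log2 ratio of -0.40 (adjusted p = 1.24e-17, exact binomial test). Mrpl42 had a ratio of -0.36 (adjusted p = 2.20e-24) and Mrpl40 (mL40) of -0.35 (adjusted p = 1.41e-13, both exact binomial tests), with 38.4 and 48.4 TPM for Mrpl40 in replicates 1 and 2. The credibility intervals of 40 members did not overlap, against 43.5% of all genes tested and 50.6% of those at 10 TPM or more. Of the 40, 22 were higher in replicate 1 (against 26.2% and 27.1%) and 18 were lower (against 17.2% and 23.4%). The 4 highest and 4 lowest genes of each subunit were not all steady. The coefficient of variation was under 10% for Mrpl30, Mrpl20, Mrpl11, Mrpl57, Mrpl19, Mrps14, Mrps15, Mrps16, Mrps27 and Mrps6. It was above 10% for Mrpl42, Mrpl24, Mrpl35, Mrps17, Mrps31 and Mrps5.

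Mrpl23 (uL23m, at the tunnel exit) had the second largest ratio and the least certain level. It had 22.4 TPM in replicate 1, with an interval of 17.2 to 28.5 TPM, and 15.5 TPM in replicate 2, with 9.70 to 20.7 TPM. The log2 ratio of its reads was 0.47 (adjusted p = 3.88e-06, exact binomial test). A processed pseudogene named after it, Mrpl23-ps1 on chromosome 2, was given 53.4 and 56.0 TPM, above the gene itself in both libraries. The protein-coding transcript of Mrpl23 had 0 and 0.36 TPM. Both genes had counts with a fraction, and reads of near-identical copies are divided by estimate, so both levels are uncertain. Of the members, 54 had whole read counts in both libraries (within 0.005), and 23 had counts with a fraction, where part of the reads was divided among features. The other pseudogenes named after members were low: Mrpl48-ps had 0.79 and 0.23 TPM, and the 3 Mrps36 copies at most 0.42 TPM.

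Members were often arranged head to head with another gene. Starts here are the outermost gene starts of GENCODE M21, which can differ from the RefSeq starts of the printed windows. For 33 of the 77 (42.9%; 24 large, 9 small), the start of a protein-coding gene on the opposite strand lay within 1000 bases, against 10.9% of all protein-coding genes and 19.7% of those at 10 TPM or more. These members formed 32 pairs, since Mrpl46 and Mrps11 are partners of each other, and 18 pairs had starts that did not overlap. Head-to-head members had a median of 25.2 TPM and the other 44 members 30.8 TPM. The member was the higher gene in both libraries in 24 pairs and the lower in 8. In 17 pairs the partner was at 10 TPM or more in both libraries, and in 3 it was under 1 TPM in both.

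**Figure D5:**
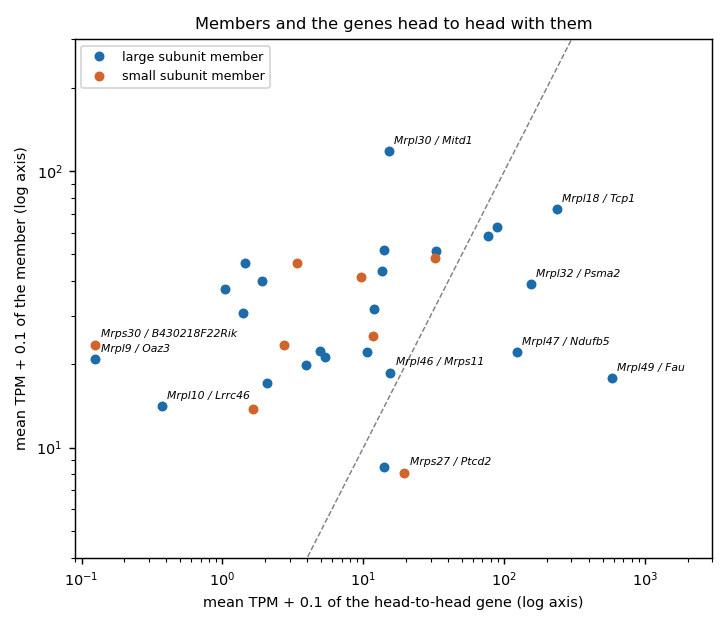
Mean TPM plus 0.1 of a member (y, log axis) against that of the protein-coding gene head to head with it (x, log axis), for 32 pairs, with large-subunit members in blue and small-subunit members in orange. Points above the dashed line have the higher level in the member; Mrpl46 is drawn with Mrps11 as its partner.

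Several partners belong to mitochondria or to protein synthesis. Mrpl49 (mL49), with 19.3 and 16.2 TPM in replicates 1 and 2, starts 59 bases from Fau, which encodes the cytoplasmic ribosomal protein eS30 and had 580 and 584 TPM. Mrpl36 (bL36m), with 56.1 and 60.8 TPM, faces Ndufs6, a complex I subunit with 84.3 and 68.2 TPM. Mrpl47 (uL29m), with 22.06 and 22.03 TPM, faces Ndufb5, another complex I subunit with 121 and 125 TPM. Mrps12 (uS12m), a protein of the decoding centre with 50.1 and 43.0 TPM, faces Sars2, the mitochondrial seryl-tRNA synthetase, with 3.31 and 3.29 TPM. Mrpl43 (mL43), with 21.0 and 21.5 TPM, faces Twnk, the mitochondrial DNA helicase, with 5.65 and 4.84 TPM. Mrps27, the lowest small-subunit gene, starts 81 bases from Ptcd2 with 20.3 and 18.5 TPM, so here the partner was the higher.

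Other partners have roles elsewhere in the cell. Mrpl18 (uL18m), which binds 5S ribosomal RNA in bacteria, had 69.2 and 76.3 TPM beside Tcp1, a chaperonin subunit, with 233 and 237 TPM. Mrpl32 had 36.1 and 41.8 TPM beside Psma2, a proteasome subunit, with 154 TPM in both libraries. Mrpl30 starts 66 bases from Mitd1, which had 18.5 and 11.7 TPM, and Mrpl10 153 bases from Lrrc46 with 0.28 and 0.26 TPM. Mrpl46 and Mrps11, whose start windows are printed above, had 21.3 and 15.9 TPM (Mrpl46) and 15.4 and 15.6 TPM (Mrps11) in replicates 1 and 2. Their reads had log2 ratios between the libraries of 0.39 (adjusted p = 2.54e-09) for Mrpl46 and -0.01 (adjusted p = 0.891, both exact binomial tests) for Mrps11, whose exons share 173 bases with Mrpl46 on the other strand.

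Overlap limits some of these levels. In 23 members at least 50 exon bases are shared with a gene on the opposite strand and in 7 with a gene on the same strand, by M21. The use of strand in counting (not given in the sources used here) decides whether reads of such partners can be told apart, so these levels are uncertain. Large overlaps include Mrps25 with Nr2c2 (4590 bases; Nr2c2 at 14.4 and 13.3 TPM, Mrps25 at 22.6 and 26.1 TPM), Mrpl19 with Gcfc2 (1962 bases), and Mrps34 with Mapk8ip3 (1309 bases). Mrpl47 shares exon bases with 2 higher genes on the opposite strand. These are Ndufb5 (616 bases, 121 and 125 TPM in replicates 1 and 2) and Actl6a (452 bases, 54.03 and 46.95 TPM).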

How the data were processed

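Total RNA was sequenced for 2 libraries of 1 group, and the authors' tables per gene and per transcript were used as deposited. Per the file list in the labels, reads were placed on mouse build mm10 with GENCODE M4; the aligner, quantifier and strand use were not stated there. Expected counts, as deposited, estimate the reads of each gene without normalization, with shared reads divided among features. The authors' TPM values are levels per effective length scaled to a fixed total over all rows, and the deposited FPKM values are scaled to the fragments read. Score columns, as deposited, bound credibility intervals (level not given in the sources used here), and the deposited percent values give each transcript's part of its gene's TPM.

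Symbols, classes and positions came from GENCODE M21 on GRCm38 (42462 of 43346 Ensembl rows matched, 98.0%), and start windows from RefSeq GRCm38.p6. Expected counts were rounded to whole numbers and tested, replicate 1 against replicate 2, by an exact two-sided binomial test at the TMM ratio of edgeR 4.0.16 (R 4.3.3) over the 14304 genes passing filterByExpr, with Benjamini-Hochberg adjustment over all of them, in scipy 1.17.1; the log2 ratio has a prior count of 2. With 1 library per replicate the test has no spread between animals. The script was tested on simulated data. Medians are over genes, and SDs over 2 libraries. Alternatives were DESeq2 1.42.0 size factors, the total of nuclear protein-coding genes, no filter, counts divided by 4, FPKM, posterior mean TPM and other placements of the subunits. Depth was 82746658 and 75652762 expected counts in replicates 1 and 2, and 1 TPM corresponded to a median of 53.8 reads of a member.

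Named genes were the 4 highest and 4 lowest of each subunit, the 3 largest ratios in each direction, the stalk genes, the Mrps18 paralogs, Mrps30, Mrps36 and members with changing leading transcripts; other genes were named after their values were seen. The members and lists were chosen with earlier results of these data known. Of the listed symbols, Mtrfr and Azu1 were not matched and are not analysed here. Columns of samples that could not be mapped numbered 0.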

Additional observations from a re-analysis of the deposited data

How the results depend on the processing

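The comparison of the subunits depended on how it was made. The log2 ratio of the median levels, large over small, was 0.15 from mean TPM and became -0.39 with the genes placed by structure, -0.0202 as a difference of mean log2(TPM + 1) and -0.0231 with a pseudocount of 0.1. It was 0.0268 to 0.0685 when either library was left out. After seeing the data, 2 alternatives were added: protein-coding transcripts alone gave -0.0697, and leaving out members with divided reads gave -0.17. The cause was not tested. The percent of pairs with the higher large-subunit gene, 48.3%, was 48.0% with posterior mean TPM, 43.5% by structure, 48.4% with coding transcripts, 41.0% without divided reads, and 48.4% to 48.5% with 1 library left out. With the size limit at 0.5 in place of 1, 1 member was called, against 18.6% of all genes tested. With DESeq2 size factors 0 members were called, against 1094 of 14304 genes tested, and with the protein-coding total 0, against 1085. Without a filter 0 were called, against 2987 of 43346 genes, and with counts divided by 4 again 0, against 321 of 12306. Calls were rare at the level of the members, at 0.607% of genes at 10 TPM or more in the main setting. The protein-coding total moved the median of all genes to 0.04 and that of the members to 0.07. Members with a ratio above 0 rose from 41 to 47. Among the genes named by rule, it turned the ratios of Mrpl10 (to 0.0279), Mrps15 (to 0.0112) and Mrps18c (to 0.0301), none past the adjusted threshold. With counts divided by 4, 10 members were higher and 9 lower in replicate 1 by adjusted p (against 13.3% and 14.3% of the 12306 genes tested). Among tested genes at 10 TPM or more the shares were 12.2% and 21.8%. At full depth the members numbered 26 and 23. Only the genes named by rule were followed singly. Among them Mrpl23 (adjusted p = 0.0584, exact binomial test) no longer passed, nor did Mrpl1, Mrpl48, Mrps18a, Mrps31 and Mrps5. Members at 10 TPM or more in both libraries numbered 72, with 77 after rescaling TPM over nuclear protein-coding genes, 76 at a limit of 5 TPM, 54 at 20 TPM, 69 by FPKM, 58 from coding transcripts, and 72 to 73 with 1 library left out. No paired analysis was possible because there is 1 group. With 2 libraries under 1 donor identifier, every spread is poorly known.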

Other observations

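Factors of mitochondrial translation and of mitoribosome assembly were compared between the libraries by the same test, which covers counting error only. None differed by 1 or more on the log2 scale, while 7.66% of all genes tested were called. Of 14 translation factors, 8 were higher and 2 lower in replicate 1 at adjusted p under 0.05 (exact binomial test, against 29.7% and 29.4% of all genes tested). Of 25 assembly factors 7 were higher and 5 lower by the same test, against the same 29.7% and 29.4%. These counts of factors are a description, since many genes of any kind pass this test. Lrpprc, which stabilises mitochondrial messages, had 21.8 and 17.5 TPM in replicates 1 and 2 (log2 ratio 0.29), and its partner Slirp 47.0 and 42.9 TPM (log2 ratio 0.12, not past the threshold). The RNA helicase Ddx28 had 3.62 and 5.00 TPM (log2 ratio -0.51), and the GTPase Mtg2 2.63 and 3.98 TPM (log2 ratio -0.61). Mettl17, a methyltransferase-like factor of the small subunit, had 4.17 and 2.77 TPM (log2 ratio 0.66). The ratios of Mettl17 and Mtg2 were larger in size than that of any member. Ddx28, Mtg2 and Mettl17 rested on 220 to 613 reads per library.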
